A study of Homo sapiens with 12 samples.

Results

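Aminoacyl-tRNA synthetases join each amino acid to its tRNA, the step that makes amino acids available to the ribosome. The set described here holds 35 nuclear genes for these enzymes, 19 for the cytosolic and 16 for the mitochondrial enzymes, taken by name and measured through every probe set that the platform annotation assigns to them, 72 in all. Of these genes, 32 are represented among the 15587 genes with a tested probe set of their own, 17 cytosolic and 15 mitochondrial. The other 3, MARS1, QARS1 and TARS2, are on the array only through probe sets that are also assigned to a microRNA gene within them (MIR6758, MIR6890 and MIR6878). They are given apart and enter no count.

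The cells were H929, a human myeloma line, on Affymetrix U133 Plus 2.0 arrays, with 3 arrays in each of 4 groups. One group was untreated, and the others had 24 hours of 1 µM tosedostat, of 250 nM CHR-3996, or of both compounds at those doses. Tosedostat (CHR2797 in the labels) inhibits aminopeptidases, which release amino acids from the ends of peptides, and CHR-3996 inhibits histone deacetylases (HDAC). The study asked why the pair acts more strongly on myeloma cells than either compound alone. The labels call the arrays biological replicates, but whether each came from a culture of its own is not stated. The p-values then speak only of the spread among these 12 arrays, which may be technical. No vehicle and no time in culture is given for the untreated cells, and all groups come from 1 line.

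Cells carry 2 sets of these enzymes. Most cytosolic enzymes are made from one gene and the mitochondrial enzyme for the same amino acid from another, whose symbol ends in 2, but GARS1 and KARS1 each encode both forms. EPRS1 is a single protein with glutamyl- and prolyl-tRNA synthetase activity, and FARSA and FARSB are the subunits of one cytosolic enzyme. Several cytosolic enzymes sit in the multisynthetase complex with the scaffold protein AIMP1, and the others are free. Mitochondria have no glutaminyl enzyme of their own: EARS2 charges that tRNA with glutamate, and an amidotransferase built from GATB, GATC and QRSL1 converts it. Uncharged tRNA activates the kinase GCN2 (gene EIF2AK4), which raises translation of the transcription factor ATF4, and several cytosolic synthetase genes are known ATF4 targets.

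The 7 plasma cell markers examined (SDC1, CD38, PRDM1, IRF4, XBP1, TNFRSF17 and MZB1) were above the 40th percentile of the array on all 3 untreated arrays. Of 6 markers of other cells, CD3D, CD14 and COL1A2 were below it on all 3, while CD3E, CSF1R and COL1A1 were above it. Values are deposited log2 values, a gene is represented by its brightest tested probe set, and a change is called at an adjusted p under 0.05 in limma over 36395 probe sets. The median value of the whole array was 5.0 to 5.1 in the untreated and tosedostat groups and 5.2 to 5.3 with CHR-3996 or the combination. The 3′ minus 5′ signal of the actin control probe sets was 2.14 on the log2 scale in untreated cells, 2.09 with tosedostat, 1.59 with CHR-3996 and 1.24 with both, against 0.44, 0.43, 0.45 and 0.35 for the GAPDH controls. The part of the actin difference in the results was not tested, and the counts with equal array medians are given below.

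**Figure D1:**
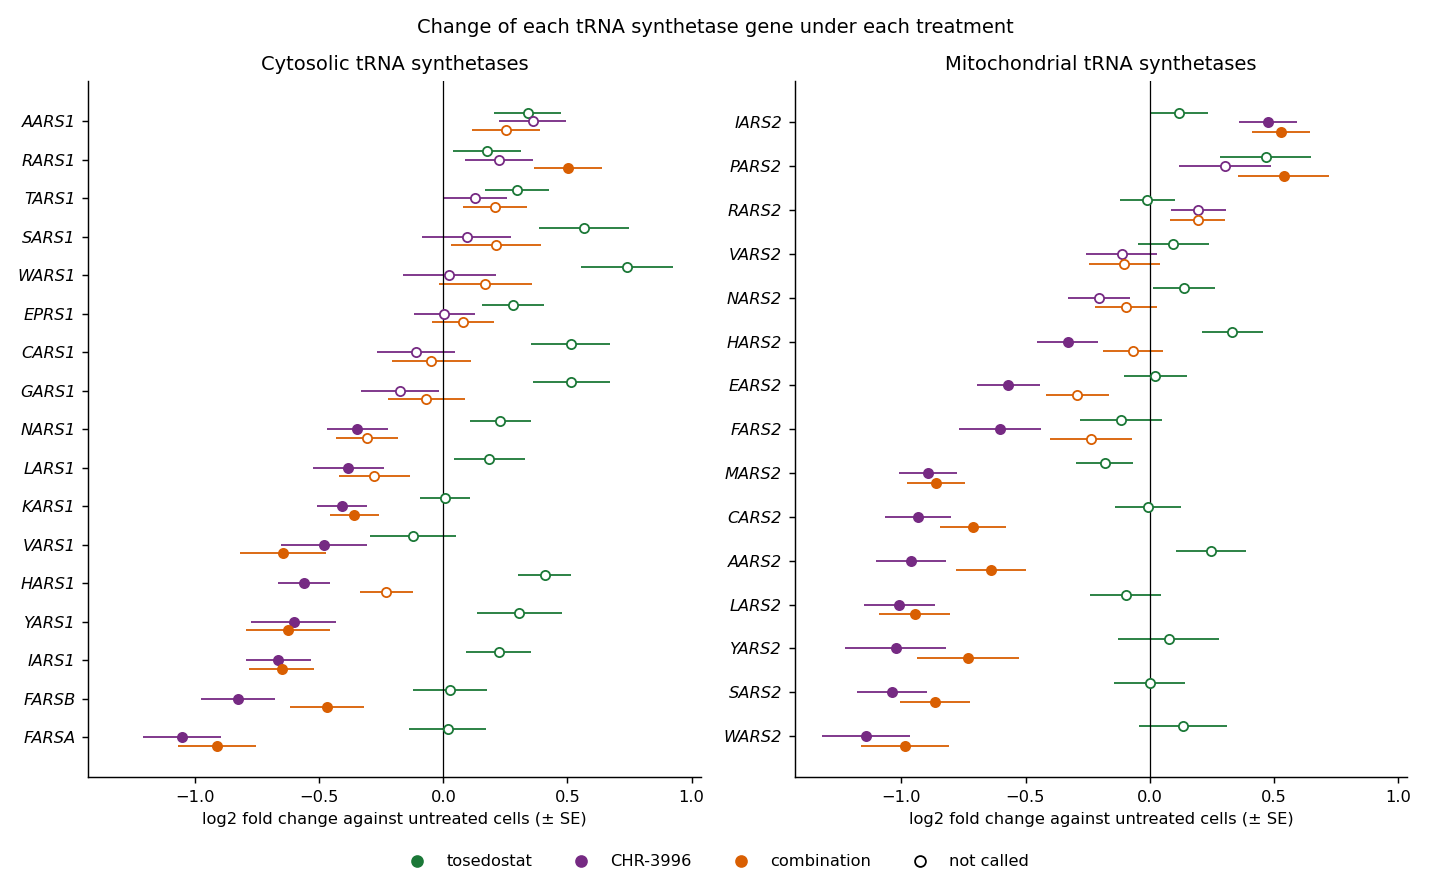
Log2 fold change against untreated cells (horizontal axis, ± standard error from limma) of 17 cytosolic and 15 mitochondrial synthetase genes, ordered by their change with CHR-3996, with filled points for called changes and open points for the rest. The tosedostat points are all open, 16 of 17 cytosolic ones lie right of 0, and the CHR-3996 and combination points of most mitochondrial genes lie left of 0.

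With tosedostat alone no synthetase gene passed the test by its brightest probe set, in limma or by the study's own criteria, but the cytosolic genes lay almost all to the positive side. Of the 17 cytosolic genes, 16 had a positive difference, as had 8935 of all 15587 genes. The cytosolic median log2 fold change was 0.28, against 0.04 for all genes represented and 0.08 for the 15 mitochondrial genes. In RNA from whole cultures, a change in the share of cells that express a gene and a change in RNA per cell cannot be told apart. Limma called 0 of 32 synthetase genes higher and 0 lower, where it called 4.25% of all genes higher and 0.545% lower. The standard errors use a spread shared by all 4 groups. The median SD across the 32 genes was 0.24 with CHR-3996, 0.06 in untreated cells and 0.05 with tosedostat. The errors of the tosedostat differences therefore also carry the spread of the CHR-3996 arrays. The count with the compared groups alone is given below. At an unadjusted p under 0.05, 8 cytosolic genes (AARS1, CARS1, EPRS1, GARS1, HARS1, SARS1, TARS1 and WARS1) and 2 mitochondrial genes (HARS2 and PARS2) were higher and none was lower, beside 14.0% and 4.62% of all genes. The study's criteria (at least 2-fold on the linear scale, a difference over 100 and an unadjusted p under 0.05) took 0 of the 32 in either direction, and 0.879% of all genes higher and 0.0642% lower.

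The separation of the arrays was wider than the calls. On 13 of 17 cytosolic genes all 3 tosedostat arrays lay above all 3 untreated arrays, as they did for 20.1% of all genes, and VARS1, the valyl enzyme, lay below, as did 9.16% of all genes. Among the 15 mitochondrial genes, HARS2 and NARS2 lay above and MARS2 below. The cytosolic genes that did not separate were FARSA, FARSB and KARS1, whose log2 fold changes were 0.02, 0.03 and 0.01.

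WARS1, the tryptophanyl enzyme, had the largest difference of the 32 genes under tosedostat. Its probe set read 11.60, 11.68 and 11.59 on the untreated arrays, 12.28, 12.43 and 12.38 with tosedostat, 11.22, 12.09 and 11.63 with CHR-3996, and 11.98, 11.70 and 11.69 with both. All 3 tosedostat arrays stand above every other array, and the CHR-3996 arrays spread across the untreated values. The log2 fold change with tosedostat was 0.74 (SE 0.19), or 1.67-fold, with an adjusted p of 0.0557. A second WARS1 probe set, 200628_s_at, was called higher by 0.95 (SE 0.21, adjusted p 0.0335), where 3.23% of all tested probe sets were called higher.

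SARS1, the seryl enzyme, read 10.81, 10.81 and 10.98 in untreated cells and 11.37, 11.40 and 11.52 with tosedostat. With CHR-3996 it read 10.51, 11.35 and 11.01, and with both compounds 10.99, 11.16 and 11.09. The tosedostat arrays are again above all the others, and the difference of 0.57 (SE 0.18) had an adjusted p of 0.129. Its second probe set, 231894_at, was called higher by 1.16 (SE 0.26, adjusted p 0.0354).

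CARS1, the cysteinyl enzyme, has 4 tested probe sets. The brightest read 12.11, 12.19 and 12.23 in untreated cells and 12.73, 12.68 and 12.65 with tosedostat, a difference of 0.51 (SE 0.16, adjusted p 0.118) with no overlap. Probe set 202402_s_at read 8.87, 9.11 and 8.91 untreated and 9.76, 9.88 and 9.89 with tosedostat, and was called higher by 0.88 (SE 0.20, adjusted p 0.0370). So for WARS1, SARS1 and CARS1 the call depended on which probe set stood for the gene. Of the 60 tested probe sets assigned to a member alone, only 1 of each of these genes was called higher. That is near the 3.23% of all tested probe sets called higher, so these calls are not a result about the set.

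GARS1, the glycyl enzyme of both compartments, read 12.84, 12.92 and 12.73 in untreated cells and 13.42, 13.32 and 13.29 with tosedostat. The groups do not overlap, and the difference was 0.52 (SE 0.16, adjusted p 0.109). KARS1, the other gene that serves both compartments, read 13.20, 13.24 and 13.18 untreated and 13.21, 13.21 and 13.22 with tosedostat, so its groups overlap throughout.

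HARS1, the cytosolic histidyl enzyme, read 11.69, 11.64 and 11.66 untreated and 12.07 on each of the 3 tosedostat arrays, a difference of 0.41 (SE 0.11, adjusted p 0.0663). HARS2, the mitochondrial histidyl enzyme, read 9.92, 9.91 and 9.91 untreated and 10.20, 10.24 and 10.29 with tosedostat, a difference of 0.33 (SE 0.12, adjusted p 0.196). HARS2 had the second highest difference among the mitochondrial genes, after PARS2. The histidyl genes start back to back on chromosome 5 (GRCh38.p14), HARS1 at base 140691370 on the minus strand and HARS2 at base 140691455 on the plus strand, by RefSeq. The 84 bases between their start sites, chr5:140691371-140691454, are shown because both genes share them, read on the plus strand towards HARS2:
HARS1-HARS2: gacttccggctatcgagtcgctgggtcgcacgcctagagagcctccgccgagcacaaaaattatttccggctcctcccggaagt

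PARS2, the mitochondrial prolyl enzyme, read 7.02, 7.19 and 6.67 in untreated cells and 7.49, 7.62 and 7.17 with tosedostat. The lowest tosedostat array lies below the highest untreated array, and the difference of 0.47 (SE 0.18) had an adjusted p of 0.231. With the replicate number as a block, PARS2 was called higher (adjusted p 0.0305). The numbers of these groups pass the pairing check, but the block spans all groups, and not every pair of groups passes. The share of all genes called in that fit is not given here. WARS1 and HARS1 were not called in that fit (adjusted p 0.0511 and 0.0549).

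How many cytosolic genes were called under tosedostat depended on the settings, between 0 and 5 of 17. WARS1 was called by every setting that called any cytosolic gene, HARS1, CARS1, SARS1 and GARS1 by some of them, and no other cytosolic gene by any. The count was 4 with quantile normalization, 5 with a variance trend and robust estimation, and 3 when CHR-3996 replicate 1 or replicate 2 was left out of the shared estimate of spread. The share of all genes called under these settings is not given here. The counts therefore describe the settings and are not a result about the synthetases. Multisynthetase complex genes (EPRS1, IARS1, KARS1, LARS1 and RARS1) had a median of 0.18 and the 12 free cytosolic genes a median of 0.32, ranging from −0.12 for VARS1 to 0.74 for WARS1.

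**Figure D2:**
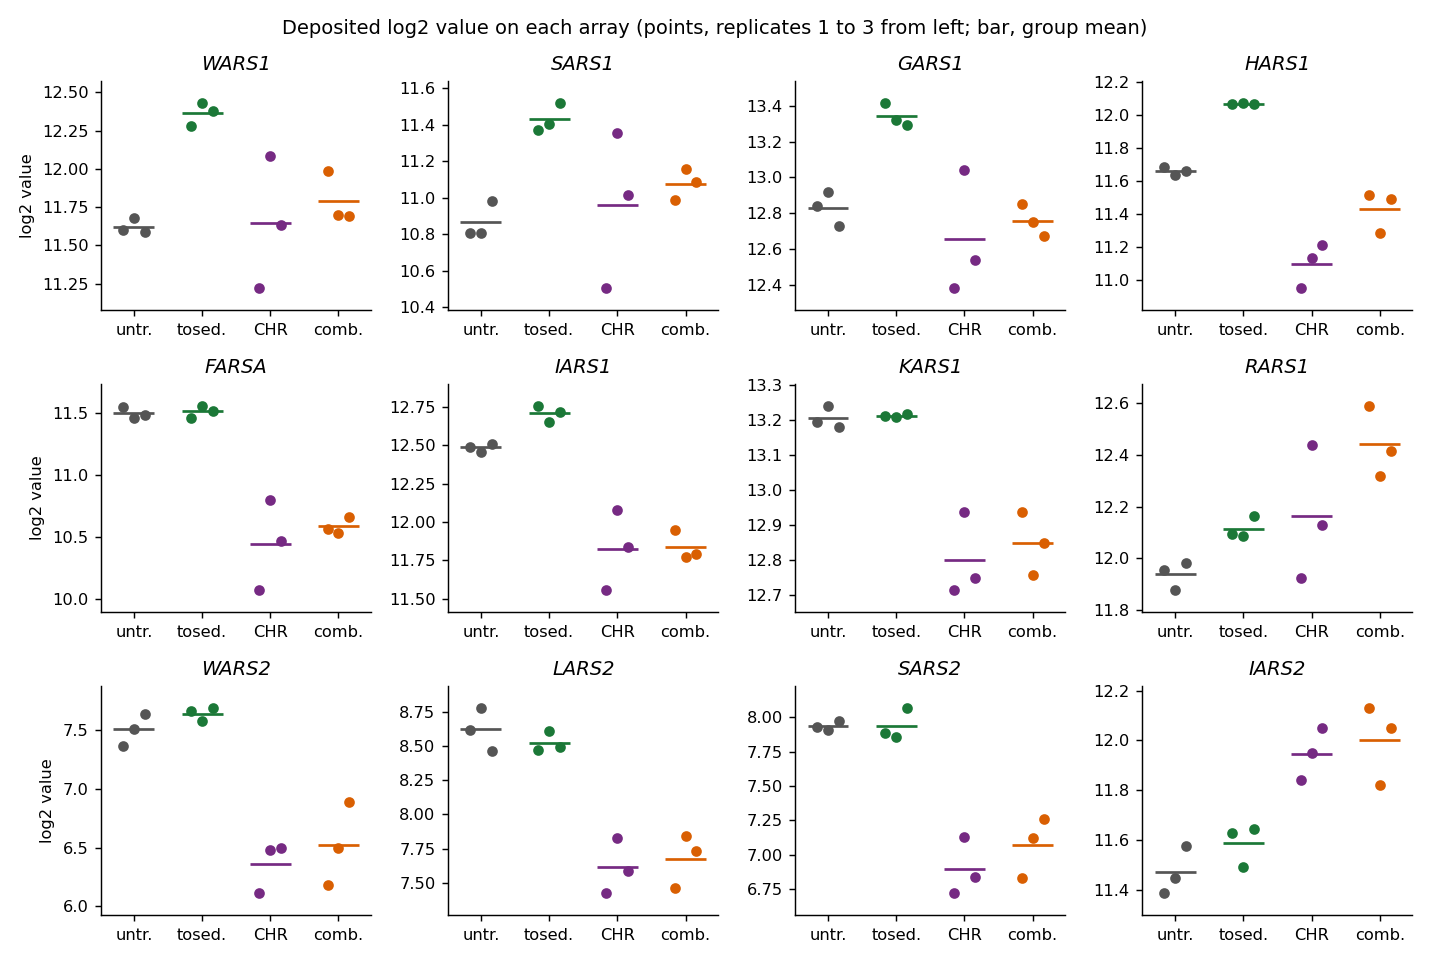
Deposited log2 value (vertical axis, own scale in each panel) of the brightest probe set of 12 synthetase genes on each of the 12 arrays, with points for arrays and bars for group means. WARS1, SARS1, GARS1 and HARS1 are highest on the 3 tosedostat arrays, while FARSA, WARS2, LARS2 and SARS2 are low on all 6 arrays with CHR-3996.

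The letters of the promoters were searched for the core of the amino acid response element, the sequence bound by ATF4 with a C/EBP partner, since ATF4 targets are known among the cytosolic genes. The windows run from 250 bases before to 50 after each RefSeq start site in GRCh38.p14, and 30 of 35 genes have one. None was used here for LARS1, VARS1, YARS1, AARS2 or VARS2. The motif TGATGNAAN, on either strand, is in 3.61% of all 35116 windows and in at least 1 window of 4.45% of 27305 genes. It is in 7 of 16 cytosolic genes (43.8%) and in 1 of 14 mitochondrial genes (7.14%). The stricter TGATGCAAT is in 0.236% of all windows and, of the synthetase genes, in TARS1. Matches are letters in a window, not evidence of binding.

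Each match is printed with 10 bases on either side, 5′ to 3′ on the gene's strand, because these are the cytosolic genes that share the letters. Capitals mark the match, which reads on the opposite strand in all but NARS1. The matches lie at chr16:70289686-70289694 (AARS1, minus strand), chr11:3057418-3057426 (CARS1, minus), chr7:30594844-30594852 (GARS1, plus), chr9:92293703-92293711 (IARS1, minus), chr12:57488063-57488071 (MARS1, plus), chr18:57621814-57621822 (NARS1, minus) and chr5:33440966-33440974 (TARS1, plus). Counted from the start site as base 1, with upstream bases negative, they begin at −188, −3, −34, −14, −5, 15 and 2 in that order. The mitochondrial match, in YARS2, begins at −197.
AARS1: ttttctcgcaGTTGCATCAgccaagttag
CARS1: cggggcggcgGTTGCATCAgattctagga
GARS1: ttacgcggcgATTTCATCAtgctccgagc
IARS1: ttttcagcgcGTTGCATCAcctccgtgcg
MARS1: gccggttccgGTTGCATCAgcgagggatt
NARS1: ctacgctctcTGATGCAACgccggaatcg
TARS1: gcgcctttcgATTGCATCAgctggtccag

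The 6 represented cytosolic genes with a match had log2 fold changes under tosedostat from 0.22 for IARS1 to 0.52 for GARS1, with a median of 0.32. The 8 with a window and no match ranged from 0.01 for KARS1 to 0.74 for WARS1, with a median of 0.23. WARS1, SARS1 and HARS1, among the highest differences, have no match in these windows. MARS1, the methionyl enzyme, has a match, and its brightest shared probe set, 213671_s_at, read 11.64, 11.77 and 11.64 untreated and 12.08, 12 and 12.08 with tosedostat. Those groups do not overlap, and the difference was 0.37 (SE 0.15, adjusted p 0.256). Of its other shared probe sets, 201475_x_at read 10.87, 10.93 and 11.02 untreated and 11.42, 11.25 and 11.57 with tosedostat, without overlap. Probe set 213672_at read 6.27, 6.30 and 6.08 untreated and 6.62, 6.10 and 6.09 with tosedostat, with overlap.

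With CHR-3996 alone 19 of the 32 synthetase genes were called lower. Of 15 mitochondrial genes 10 fell and 1, IARS2, rose, with a median log2 fold change of −0.60. Of 17 cytosolic genes 9 fell and none rose, with a median of −0.35. Limma called 18.0% of all genes lower and 31.7% higher, and their median was 0.11. For comparisons other than tosedostat against untreated cells, the share of all genes whose arrays separate is not given here. Separations reported below describe single genes and are not a result about the set. Of the 19 genes that fell, 12 have further tested probe sets. In 6 of them (AARS2, EARS2, FARSA, KARS1, LARS2 and VARS1) every further probe set fell too, and in 5 (CARS2, FARS2, FARSB, WARS2 and YARS1) none did. The study's criteria took FARSA, LARS2 and SARS2 as lower and no synthetase gene as higher, beside 5.38% and 10.8% of all genes.

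WARS2, the mitochondrial tryptophanyl enzyme, had the largest fall by its brightest probe set. It read 7.36, 7.51 and 7.64 in untreated cells, 7.66, 7.58 and 7.69 with tosedostat, 6.12, 6.48 and 6.50 with CHR-3996 and 6.18, 6.49 and 6.89 with both. The 6 arrays with CHR-3996 all lie below the 6 without it. It fell by 1.14 on the log2 scale with CHR-3996 (SE 0.18, adjusted p 0.000296) and by 0.98 in the combination (SE 0.18, adjusted p 0.000817). A second WARS2 probe set, 222734_at, read 6.87, 6.57 and 7.35 untreated and 6.72, 6.52 and 6.35 with CHR-3996. Those groups overlap, and its difference of −0.40 (SE 0.25, adjusted p 0.218) was not called, while in the combination it fell by 0.68 (adjusted p 0.0412).

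SARS2, the mitochondrial seryl enzyme, read 7.93, 7.91 and 7.97 in untreated cells and 6.72, 7.13 and 6.84 with CHR-3996, and fell by 1.04 (SE 0.14, adjusted p 0.000121). With tosedostat it read 7.89, 7.86 and 8.07, and with both compounds 6.83, 7.12 and 7.26. Again the arrays with CHR-3996 are all below those without it.

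LARS2, the mitochondrial leucyl enzyme, read 8.62, 8.78 and 8.47 untreated and 7.43, 7.83 and 7.59 with CHR-3996, and fell by 1.01 (SE 0.14, adjusted p 0.00016). Its second probe set, 204016_at, fell by 1.01 as well (SE 0.13). YARS2, the mitochondrial tyrosyl enzyme, read 10.15, 10.37 and 10.38 untreated and 8.82, 9.53 and 9.47 with CHR-3996, and fell by 1.02 (SE 0.21, adjusted p 0.00172). In neither gene do the groups overlap.

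The other mitochondrial genes that fell were AARS2 by 0.96, CARS2 by 0.93, MARS2 by 0.89, FARS2 by 0.60, EARS2 by 0.57 and HARS2 by 0.33. EARS2, the enzyme that also charges the mitochondrial glutamine tRNA, fell on each of its 3 tested probe sets. NARS2 (−0.20), VARS2 (−0.11), RARS2 (0.20) and PARS2 (0.30) were not called. For HARS2 the adjusted p was 0.0474, and leaving out any of 11 of the 12 arrays took it past the threshold.

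IARS2, the mitochondrial isoleucyl enzyme, went the other way. It read 11.39, 11.45 and 11.58 in untreated cells, 11.63, 11.49 and 11.64 with tosedostat, 11.84, 11.95 and 12.05 with CHR-3996 and 12.13, 11.82 and 12.05 with both. Every array with CHR-3996 is above every array without it. The rise was 0.48 with CHR-3996 (SE 0.12, adjusted p 0.00603) and 0.53 in the combination (SE 0.12, adjusted p 0.00317). When the arrays were set to equal medians, its change stayed positive but was not called in either comparison.

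Among the cytosolic genes, FARSA and FARSB, the subunits of the phenylalanyl enzyme, fell most. FARSA read 11.55, 11.46 and 11.49 in untreated cells, 11.46, 11.56 and 11.52 with tosedostat, 10.07, 10.80 and 10.47 with CHR-3996 and 10.57, 10.54 and 10.66 with both. The arrays with CHR-3996 lie well below the rest, and the fall was 1.05 (SE 0.16, adjusted p 0.000221), or 2.07-fold. Its second probe set, 216602_s_at, fell by 1.24 (SE 0.14).

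FARSB read 12.10, 12.13 and 12.07 untreated and 10.93, 11.48 and 11.39 with CHR-3996, and fell by 0.83 (SE 0.15, adjusted p 0.000808). A second FARSB probe set, 232063_x_at, read 6.44, 6.53 and 6.41 untreated and 6.47, 6.45 and 6.49 with CHR-3996, so its groups overlap. The probe sets of FARSB therefore do not give the same change.

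IARS1, the cytosolic isoleucyl enzyme and a member of the multisynthetase complex, fell by 0.66 (SE 0.13). YARS1, the tyrosyl enzyme, fell by 0.60 and HARS1 by 0.56, and KARS1 by 0.41. VARS1, LARS1 and NARS1 (valyl, leucyl and asparaginyl enzymes) fell by 0.48, 0.38 and 0.35, with adjusted p of 0.0411, 0.0477 and 0.0408, and each lost its call when any of 10 or 11 of the 12 arrays was left out.

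The cytosolic genes that were not called with CHR-3996 were AARS1, CARS1, EPRS1, GARS1, RARS1, SARS1, TARS1 and WARS1. AARS1, the alanyl enzyme, read 12.29, 12.33 and 12.35 untreated, 12.68, 12.60 and 12.70 with tosedostat, 12.44, 12.99 and 12.61 with CHR-3996 and 12.56, 12.69 and 12.48 with both. Each treated group lies above the untreated arrays, by 0.34, 0.36 and 0.25, with adjusted p of 0.241, 0.0519 and 0.161. AARS1 was called higher with CHR-3996 in 6 of 22 settings.

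AARS1, EPRS1, SARS1, TARS1, RARS2 and VARS2 were called in none of the 7 comparisons by the brightest probe set. By a further probe set, EPRS1 was called lower than with tosedostat in the combination (−0.97) and with CHR-3996 (−1.06). SARS1 was called lower in the same comparisons by its second probe set (−1.04 and −0.79). A further RARS2 probe set was called higher with CHR-3996 than in untreated cells (0.97). With the replicate number as a block, SARS1 was called lower with CHR-3996 than with tosedostat (−0.47, adjusted p 0.0371). The numbers of this pair of groups pass the pairing check, but the block spans all groups, and not every pair passes. With CHR-3996 the 95% interval of the log2 fold change ran from 0.06 to 0.66 for AARS1, from −0.27 to 0.28 for EPRS1 and from −0.30 to 0.49 for SARS1. It ran from −0.16 to 0.41 for TARS1, from −0.05 to 0.44 for RARS2 and from −0.43 to 0.20 for VARS2. The probe set shared by QARS1 and MIR6890 rose by 0.31 (SE 0.11, adjusted p 0.0422), the one shared by TARS2 and MIR6878 had −0.29 (adjusted p 0.0508), and probe set 213671_s_at of MARS1 and MIR6758 fell by 0.44 (SE 0.15, adjusted p 0.0362). On the other shared MARS1 probe sets the CHR-3996 arrays overlap the untreated ones. They read 10.19, 11.01 and 10.58 on 201475_x_at and 6.01, 6.29 and 5.92 on 213672_at.

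The CHR-3996 arrays were less alike than the others on these genes. The SD over 3 arrays had a median of 0.24 across the 32 genes with CHR-3996, against 0.06 in untreated cells, 0.05 with tosedostat and 0.13 with both. Replicate 1 was the lowest CHR-3996 array for 17 of 17 cytosolic genes and replicate 2 the highest for 16. The median cytosolic difference from untreated cells was −0.49 on replicate 1, −0.10 on replicate 2 and −0.33 on replicate 3. For the mitochondrial genes it was −0.77, −0.48 and −0.55. Over all genes represented it was 0.06, 0.19 and 0.13, also lowest on replicate 1 and highest on replicate 2. This order of the arrays is therefore not particular to the synthetases. The SD over all genes is not given here. Without replicate 1 the cytosolic median was −0.21 and 6 genes were called lower, and without replicate 2 the median was −0.47 and 10 were.

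**Figure D3:**
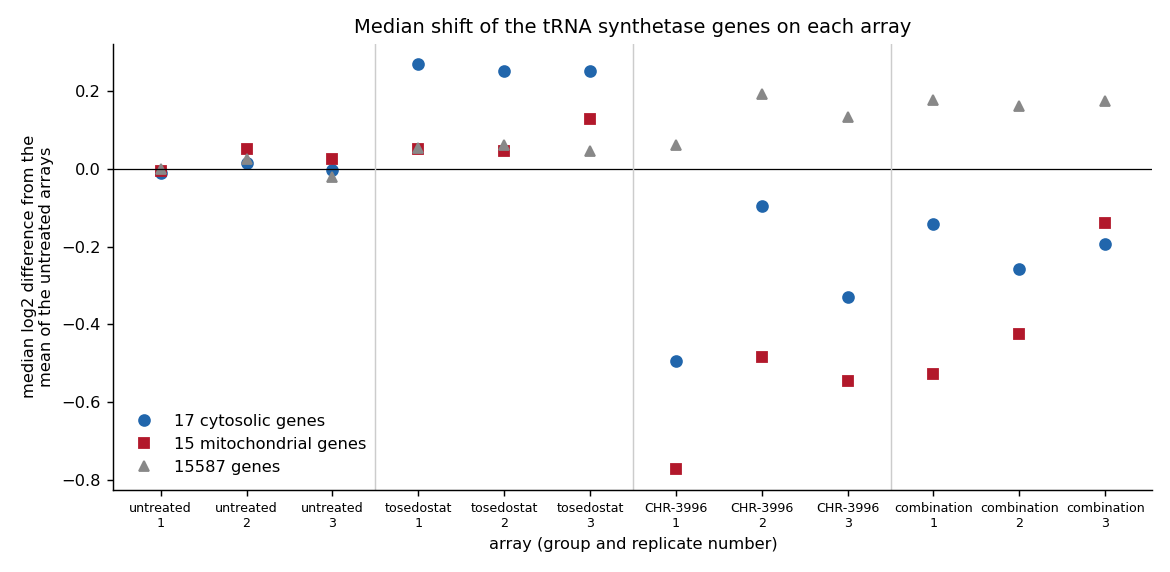
Median log2 difference from the mean of the untreated arrays (vertical axis) on each of 12 arrays, for 17 cytosolic genes, 15 mitochondrial genes and all genes represented. The cytosolic median lies between 0.25 and 0.27 on the tosedostat arrays and below 0 on all arrays with CHR-3996, with CHR-3996 replicate 1 the lowest for both lists.

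In the combination the calls were again mostly of lower values, in both compartments. Of 17 cytosolic genes 6 fell (FARSA, FARSB, IARS1, KARS1, VARS1 and YARS1) and RARS1 rose, with a median of −0.23. Of 15 mitochondrial genes 7 fell (AARS2, CARS2, LARS2, MARS2, SARS2, WARS2 and YARS2) and IARS2 and PARS2 rose, with a median of −0.29. Limma called 15.9% of all genes lower and 34.6% higher, and the median of all genes was 0.15. The study's criteria took none of the 32 genes in either direction, beside 4.21% of all genes lower and 12.2% higher.

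The scaling of the arrays changed these counts. With the arrays set to equal medians the median of all genes moved from 0.15 to −0.10, and the calls became 9 lower and 0 higher for the cytosolic list and 12 lower and 0 higher for the mitochondrial list. Under that scaling 26.6% of all genes were called lower and 25.6% higher. With CHR-3996 alone the median of all genes moved from 0.11 to −0.11, and 9 cytosolic and 11 mitochondrial genes were lower and none higher, beside 27.5% of all genes lower and 24.1% higher.

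The 5 largest falls in the combination were those of WARS2, LARS2 (0.95), FARSA (0.91), SARS2 (0.86) and MARS2 (0.86). MARS2, the mitochondrial methionyl enzyme, read 8.47, 8.48 and 8.42 untreated, 8.36, 8.13 and 8.34 with tosedostat, 7.36, 7.67 and 7.66 with CHR-3996 and 7.53, 7.66 and 7.59 with both. Its arrays with CHR-3996 are all lower than those without, and its adjusted p in the combination was 0.000109. FARSB (adjusted p 0.0230) and YARS2 (0.0125) lost their calls when certain arrays were left out, 3 of the 12 for FARSB and 1 for YARS2.

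RARS1, the arginyl enzyme, was the cytosolic gene that rose. It read 11.96, 11.88 and 11.98 in untreated cells, 12.09, 12.09 and 12.17 with tosedostat, 11.92, 12.44 and 12.13 with CHR-3996 and 12.59, 12.32 and 12.42 with both. All combination arrays lie above all untreated and tosedostat arrays, and the rise was 0.50 (SE 0.14, adjusted p 0.0103). PARS2 read 7.38, 7.77 and 7.35 with both compounds and rose by 0.54 (SE 0.18, adjusted p 0.0326), a call lost when any of 3 of the 12 arrays was left out. The probe set shared by QARS1 and MIR6890 read 11.84, 11.94 and 11.84 untreated and 12.43, 12.18 and 12.23 with both, and rose by 0.41 (SE 0.11, adjusted p 0.0106).

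The remaining comparisons reuse the same 12 arrays and are not independent of those above. Against tosedostat alone, the combination was lower for 12 of 17 cytosolic genes and higher for none, with a median of −0.52. The genes were CARS1, FARSA, FARSB, GARS1, HARS1, IARS1, KARS1, LARS1, NARS1, VARS1, WARS1 and YARS1. Of the mitochondrial genes 8 were lower and IARS2 was higher, with a median of −0.40. Limma called 15.8% of all genes lower and 30.4% higher. GARS1, which read 12.85, 12.75 and 12.67 in the combination, was lower there by 0.58 (SE 0.16, adjusted p 0.0107), and WARS1 was lower by 0.57 (SE 0.19, adjusted p 0.0288). On neither gene did the combination arrays reach the tosedostat arrays.

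YARS1 read 11.70, 11.78 and 11.67 untreated, 12.07, 12.03 and 11.97 with tosedostat, 10.71, 11.48 and 11.15 with CHR-3996 and 11.20, 11.14 and 10.93 with both. The combination was lower than tosedostat by 0.93 (SE 0.17, adjusted p 0.00107). HARS1 read 10.96, 11.13 and 11.21 with CHR-3996 and 11.52, 11.29 and 11.49 with both, and the combination was lower than tosedostat by 0.64 (SE 0.11). In both genes the 3 tosedostat arrays are the highest of the 12.

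CHR-3996 set directly against tosedostat gave 11 cytosolic genes lower, 11 mitochondrial genes lower and IARS2 higher, beside 19.3% of all genes lower and 27.9% higher. The largest cytosolic differences were those of FARSA (−1.07), HARS1 (−0.97) and YARS1 (−0.91), and the largest mitochondrial ones those of WARS2 (−1.28, but 0.06 by its second probe set) and AARS2 (−1.21). AARS2, the mitochondrial alanyl enzyme, read 7.43, 7.51 and 7.36 with tosedostat and 6.34, 6.28 and 6.05 with CHR-3996. These groups are apart by more than the width of either, and the SE of the difference was 0.14.

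Adding tosedostat to CHR-3996 gave no call. Limma called 0 of 32 genes, beside 0.0577% of all genes higher and 0% lower. At an unadjusted p under 0.05 FARSB, HARS1, AARS2 and FARS2 were higher in the combination and none was lower, where 8.83% of all genes were higher and 2.26% lower. HARS1 had a difference of 0.33 (SE 0.11, adjusted p 0.320) and its arrays did not overlap. The median difference was 0.08 for the cytosolic and 0.17 for the mitochondrial genes, and the cytosolic median was −0.07 without CHR-3996 replicate 1 and 0.25 without replicate 2.

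The interaction, the difference between the combination and the sum of the single changes on the log2 scale, was called for 0 of 32 genes by limma, beside 0.0321% of all genes above and 0.244% below that sum. At an unadjusted p under 0.05 it was negative for WARS1 (−0.60, SE 0.26, adjusted p 0.477) and AARS1 (−0.45, SE 0.19, adjusted p 0.463) and positive for none, where 6.24% of all genes were below and 4.94% above. The interaction was negative for 13 of 17 cytosolic genes, with a median of −0.21, and for 7547 of all 15587 genes, whose median was 0.01. It was positive for 10 of 15 mitochondrial genes, with a median of 0.08, and for 8040 of all genes. The cytosolic median was −0.33 without CHR-3996 replicate 1 and −0.08 without replicate 2.

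For 12 amino acids both the cytosolic and the mitochondrial enzyme are represented, taking FARSA for phenylalanine. Under tosedostat the cytosolic gene had the higher difference in 11 of 12 pairs, all but valine, and the gap was widest for tryptophan (0.74 for WARS1, 0.13 for WARS2) and serine (0.57 for SARS1, 0.00 for SARS2). With CHR-3996 it was higher in 7 of 12. The gap was widest there for alanine (0.36 for AARS1, −0.96 for AARS2), followed by tryptophan (0.02 for WARS1, −1.14 for WARS2). The tryptophan gaps depend on the probe set. The second WARS2 probe set gave −0.46 with tosedostat and −0.40 with CHR-3996, neither called.

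Isoleucine ran the other way, at −0.66 for IARS1 and 0.48 for IARS2 with CHR-3996 and −0.65 and 0.53 in the combination, with both members called in each. For phenylalanine, tyrosine, histidine and leucine both members were called lower with CHR-3996, for phenylalanine by 1.05 for FARSA and 0.60 for FARS2 and for tyrosine by 0.60 for YARS1 and 1.02 for YARS2. The arginyl pair was not called on either side with CHR-3996. The difference between members of a pair was not tested, since they are read by different probe sets.

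**Figure D4:**
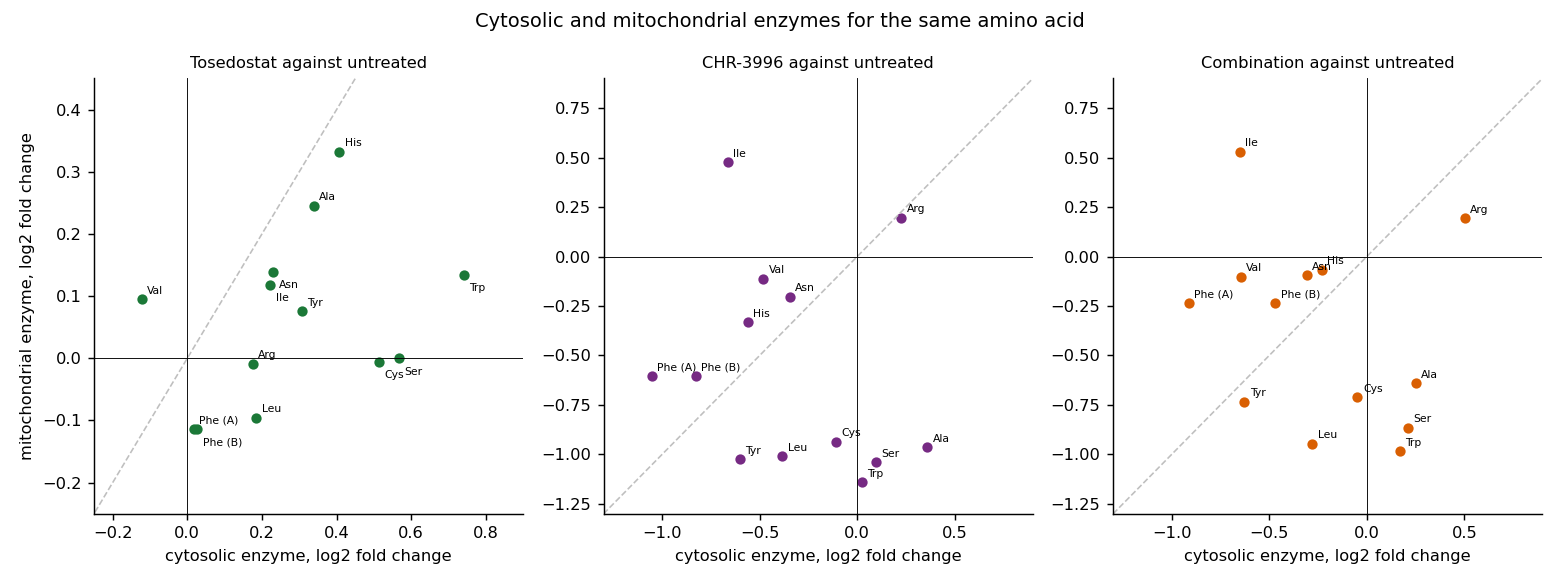
Log2 fold change of the cytosolic enzyme (horizontal axis) and of the mitochondrial enzyme for the same amino acid (vertical axis) in each comparison with untreated cells, 1 point a pair, with FARSA and FARSB both set against FARS2, a dashed line of equality, and narrower axes in the tosedostat panel. Isoleucine lies at upper left with CHR-3996 and in the combination, and alanine, serine and tryptophan lie at lower right.

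For CARS2 and RARS2 probe sets were called in opposite directions. The brightest CARS2 probe set, 218153_at, read 9.78, 9.84 and 9.70 untreated, 9.0, 8.91 and 8.60 with CHR-3996 and 9.19, 9.14 and 8.86 with both, and fell. A dim one, 1557179_s_at, read 3.27, 3.47 and 3.87 untreated, 5.28, 5.07 and 5.18 with CHR-3996 and 5.10, 5.10 and 4.72 with both. Its difference was 1.64 with CHR-3996 (SE 0.28, adjusted p 0.000536) and 1.44 in the combination (SE 0.28, adjusted p 0.00133). Its arrays with CHR-3996 all lie above the untreated ones. On every untreated and tosedostat array it lay below the 40th percentile of the array. It was tested only because it is high on arrays with CHR-3996, so these calls are no support for a rise.

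In RARS2 the brightest probe set, 225264_at, read 9.39, 9.51 and 9.53 untreated and 9.77, 9.47 and 9.77 with both, and was not called (0.19, SE 0.11). In the combination 1561048_at fell by 0.95 (SE 0.32, adjusted p 0.0318) and 232901_at rose by 1.00 (SE 0.25, adjusted p 0.00681). Both are dim, between 3.56 and 5.44 on all 12 arrays. The 40th percentile ran from 4.41 to 4.47 on untreated arrays, where 232901_at read 4.18, 4.92 and 3.68. On combination arrays the percentile ran from 4.61 to 4.65, and 1561048_at read 4.68, 4.04 and 3.56. These calls rest on values around that cutoff and are weak support for opposed changes. In LARS1, whose brightest probe set fell with CHR-3996, 217810_x_at read 10.11, 9.90 and 10.09 untreated and 10.26, 10.31 and 10.58 with CHR-3996. Its groups do not overlap, and the difference of 0.35 (SE 0.16, adjusted p 0.108) was not called. Another LARS1 probe set, 222427_s_at, fell by 0.50 (SE 0.17, adjusted p 0.0290). Which transcripts these probe sets read is not given in the files used here.

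**Figure D5:**
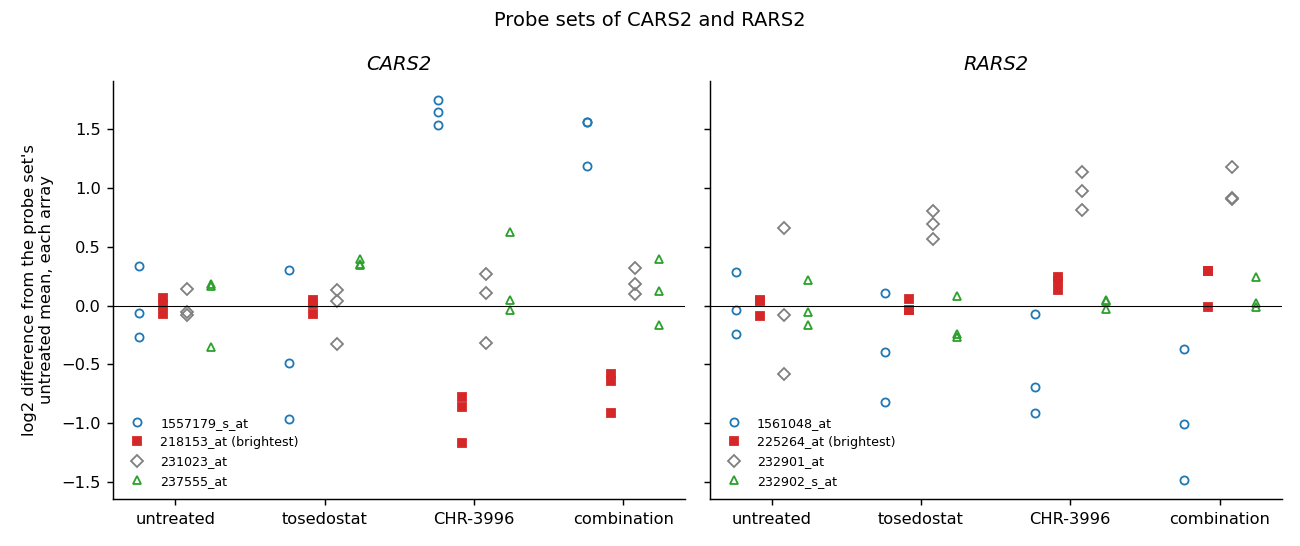
Difference of each tested probe set of CARS2 and RARS2 from its own untreated mean (log2, vertical axis) on each array of the 4 groups, filled for the brightest probe set of the gene. With CHR-3996 the brightest CARS2 probe set lies below 0 and 1557179_s_at above 1.5, and in the combination 2 dim RARS2 probe sets lie on opposite sides of 0.

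The genes around tRNA charging moved in part with the synthetases. AIMP1, the one scaffold gene of the multisynthetase complex represented of 3 listed, read 11.01, 11.07 and 11.16 untreated and 9.98, 10.52 and 10.34 with CHR-3996. It fell by 0.80 with CHR-3996 (SE 0.13, adjusted p 0.000497) and by 0.60 in the combination. Of 4 genes for the mitochondrial amidotransferase and initiator formylation, QRSL1 fell by 0.98 and MTFMT by 0.51 with CHR-3996, while GATB rose by 0.45 and GATC by 0.73. The amidotransferase genes were thus called in both directions, and the same directions were called in the combination. Of all genes, 31.7% were higher and 18.0% lower with CHR-3996, and 34.6% and 15.9% in the combination.

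The elongation factor genes measured were not called in any comparison with untreated cells. Their log2 fold changes ran from −0.02 to 0.09 for the 2 cytosolic ones (EEF1A1 and EEF1D). For the 3 mitochondrial ones (TUFM, TSFM and GFM1) they ran from −0.34 to 0.04. The 2 editing genes measured, DTD1 and DTD2, were not called either. Among 20 genes of tRNA end processing and splicing, 8 were lower and none higher with CHR-3996, beside 18.0% and 31.7% of all genes. The largest falls were those of POP7 (1.07), RPP25 (1.05) and RPP40 (0.90), subunits of ribonuclease P, and of the tRNA 3′ nuclease ELAC2 (0.83). With tosedostat none of the 20 was called, beside 4.25% of all genes higher and 0.545% lower.

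RNA polymerase III, which transcribes tRNA genes, had 18 of 19 listed genes represented, of which 10 fell and 2 rose with CHR-3996, beside the same 18.0% and 31.7% of all genes. GTF3C6, a subunit of the factor TFIIIC, read 12.10, 12.03 and 12.08 untreated and 9.54, 10.32 and 10.00 with CHR-3996, and fell by 2.11 (SE 0.17). POLR3K fell by 1.97 and POLR3E by 1.83. POLR3G fell by 1.07 while POLR3GL, which takes its place in the other form of the enzyme, rose by 1.43. Under tosedostat POLR3K was the 1 gene of the list called, lower by 0.50 (adjusted p 0.048), beside 0.545% of all genes lower and 4.25% higher.

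The 10 genes of uncharged tRNA sensing and the ATF4 response had 6 members called higher and none lower under tosedostat, beside 4.25% and 0.545% of all genes. CHAC1, a glutathione-degrading enzyme and ATF4 target, rose by 2.74, DDIT3, which encodes the transcription factor CHOP, by 2.02, SESN2 by 1.89, TRIB3 by 1.33, ASNS, the asparagine synthetase, by 0.65 and PPP1R15A by 0.58. ATF4 itself had 0.59 (SE 0.18, adjusted p 0.11). With CHR-3996, where 9 cytosolic synthetases fell, CHAC1 rose by 2.79, DDIT3 by 3.73, SESN2 by 1.70 and ASNS by 1.09, 7 of the 10 being higher and 2 lower, beside 31.7% and 18.0% of all genes. EIF2AK4, the sensor kinase, rose by 1.85 and its partner GCN1 fell by 0.74. The interaction was called and negative for DDIT3 (−2.36) and SESN2 (−1.95), and for no synthetase.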

How the data were processed

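RNA from 12 samples of H929 cells was amplified by the authors in a 2-cycle reaction, labelled with biotin, hybridised and normalised in dChip. The deposited values are log2 values for 54675 probe sets. Version, method of normalisation and probe summary in dChip were not given in the sources used here. Between 1141 and 1344 values per array are exactly 0. The members and gene lists were chosen with earlier results of these data known.

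Alternatives were other scalings, filters, probe set rules and variance models, a replicate block, single arrays left out and the criteria of the study. Control probe sets (62) were left out. A probe set was tested where 3 or more of the 12 values exceeded the 40th percentile of their own array (36395 of 54613). limma 3.58.1 in R 4.3.3 was fitted with 1 mean per group and 8 residual degrees of freedom. p-values of 7 contrasts were adjusted by Benjamini and Hochberg over all tested probe sets. Symbols came from the platform annotation, updated to current RefSeq symbols. A gene was represented by the brightest tested probe set with 1 symbol: 29161 have 1, 1365 several and 5869 none.

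All members were named. Statistics were given for the 5 highest and 5 lowest called in each comparison with untreated cells, for those with opposed probe sets and for those never called, and up to 4 called genes of other lists. Others of the members, and the promoters, were added after their values were seen, because no member was called higher under tosedostat. The fit was tested on simulated data. Promoters, from RefSeq, were searched in Python 3.11.15, and plots were drawn with matplotlib 3.10.9. The number of arrays limits the precision.

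For the pairing check, deviations of samples with the same number were correlated, and 2 groups passed where every r exceeded 0.1. Passing were tosedostat and untreated (r 0.13 to 0.29), tosedostat and CHR-3996 (0.12 to 0.16), tosedostat and combination (0.19 to 0.23) and CHR-3996 and combination arrays (0.18 to 0.28). CHR-3996 and untreated arrays (0.04 to 0.12) did not pass, and combination and untreated arrays (0.098 to 0.17) narrowly missed. All correlations were positive, so the cutoff does not divide paired groups from unpaired ones.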

Additional observations from a re-analysis of the deposited data

How the results depend on the processing

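Of 80 calls over the 7 comparisons, 68 to 80 kept direction and call in each refit other than the methods' criteria. Among the alternatives, the share of all genes called is given only for equal medians and the methods' criteria. The other counts describe the settings and are not a result about the synthetases. With 1 array left out, the cytosolic genes called were 0 to 3 (higher with tosedostat), 6 to 10 (lower with CHR-3996) and 5 to 8 (lower in the combination). The mitochondrial ones were 0, 9 to 10 and 6 to 8. Against tosedostat, 8 to 13 cytosolic and 7 to 9 mitochondrial genes were lower in the combination, and 11 to 14 and 9 to 11 with CHR-3996. Under tosedostat the cytosolic count was 4 with quantile normalization or the mean of probe sets, 2 with the 60th percentile filter or the probe set of largest spread, 1 with the compared groups alone, 5 with a variance trend and robust estimation, and 3 without CHR-3996 replicate 1 or 2. Under the replicate block 1 mitochondrial gene, PARS2, was called, and no main call was lost. With CHR-3996, 5 cytosolic genes were lower in the compared groups alone, and 1 cytosolic and 2 mitochondrial by the methods' criteria, which gave 0 and 0 in the combination. There 12 mitochondrial genes were lower with quantile normalization or equal medians. CARS2 turned to 1.64 (CHR-3996), 1.44 (combination), 1.82 (combination against tosedostat) and 2.02 (CHR-3996 against tosedostat) by the probe set of largest spread. By the mean of probe sets it turned to 0.23, 0.26, 0.28 and 0.25. Here a dim probe set opposes the brightest, and that probe set passed the filter only through arrays with CHR-3996. RARS2 turned to −0.95 in the combination by the probe set of largest spread. The other causes were not tested.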
